A study of Homo sapiens with 12 samples.

Results

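The 40 genes described here encode receptor tyrosine kinases outside the Eph family, taken as a fixed list of gene symbols and looked up in the raw count files of every library. All 40 were found among 23228 genes, and 29 of them were among the 14874 genes with enough counts to be tested. RNA came from SUM149PT, a line established from an inflammatory breast carcinoma. The 4 groups of 3 libraries, lettered A, B and C, were DMSO, 5 µM ipatasertib for 24 h, 5 µM tazemetostat started on day -5, and both agents on the same schedules. All 4 groups, controls included, were plated at 250000 cells per dish and spent the last 24 h in medium with 2% serum. Ipatasertib inhibits the AKT kinases, and tazemetostat inhibits EZH2, the methyltransferase of the repressive histone H3 lysine 27 mark. The model is a single cell line without stroma. The labels do not say that the letters stand for separate cultures, and p-values then reflect only how far these libraries spread, which may be technical.

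Receptor tyrosine kinases are membrane proteins that bind a ligand outside the cell, pair up, and phosphorylate each other's tail inside it. Adaptor proteins then dock on those tails and start the RAS-ERK and PI3K-AKT cascades. When AKT is inhibited, FOXO transcription factors enter the nucleus, and in several breast cancer models they are known to raise transcription of ERBB3, the insulin receptor and IGF1R, a circuit described as receptor feedback. EZH2, as the catalytic subunit of PRC2, keeps many developmental genes silent, including receptors that belong to neural, endothelial or mesenchymal cells. Each comparison below asks which receptor transcripts differ after blocking 1 of these enzymes or both. Protein and phosphorylation were not measured.

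Library size ran from 22355242 to 49970540 gene counts. Values are CPM, counts scaled to a common library size, on library sizes scaled by the trimmed mean of M-values (TMM), and a count of 0 allows up to 3 counts, or 0.0602 to 0.130 CPM depending on the library. Of the 12, tazemetostat A and combination B were unlike their group mates. The chi-square per degree of freedom between their counts and those of the mates was 17.3 to 19.1 and 14.4 to 24.9, against 2.64 to 6.68 for the other pairs. Calls that changed without these libraries are named with the results. They were picked from these same counts, so adjusted p without them may be too small. The line was checked against markers. The summed level of 8 epithelial markers was 3247 to 3390.2 CPM under DMSO, 1735 to 1883 CPM under ipatasertib, 2702 to 2975 CPM under tazemetostat and 1633 to 1703 CPM under both. Of the 2 hormone receptor markers, PGR, the progesterone receptor gene, was at 0 in every DMSO library. ESR1, the estrogen receptor gene, made up their sum of 3.89 to 4.15 CPM there. That sum was 3.27 to 3.65 CPM under ipatasertib, 5.26 to 5.86 CPM under tazemetostat and 3.80 to 4.17 CPM under both. The 6 leukocyte markers summed to 364 to 418 CPM under DMSO, nearly all of it from CD68, a lysosomal gene that epithelial cells also express.

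Levels of different receptors are compared here only per kilobase of transcript, with lengths from GENCODE 29, which need not be the annotation used for counting. In untreated cells the most abundant receptor transcript was DDR1, a collagen receptor, at 127 ± 2.25 CPM per kb (SD, n = 3). AXL, a TAM family receptor of the vitamin K-dependent ligand GAS6, was at 67.6 ± 1.19 CPM per kb. PTK7, a catalytically inactive receptor of WNT signalling, was at 66.4 ± 1.05 CPM per kb, a level whose libraries cannot be separated from those of AXL by their spread. Next came MET, the receptor of hepatocyte growth factor, at 34.7 ± 1.18 CPM per kb, and RYK, an atypical WNT receptor, at 31.6 ± 1.18 CPM per kb. EGFR stood at 19.6 ± 0.261 CPM per kb. ROR2, MST1R and ERBB2 lay close together, between 18.00 and 18.6 CPM per kb, and did not differ beyond their spread. The order at the top moved little with treatment: in the combination DDR1 still led, followed by PTK7, RYK and then AXL, at 39.4 ± 3.08 CPM per kb. INSR, the insulin receptor, went from place 19 to place 14, with 0.700 ± 0.0727 CPM per kb under DMSO and 3.78 ± 0.199 in the combination.

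**Figure D1:**
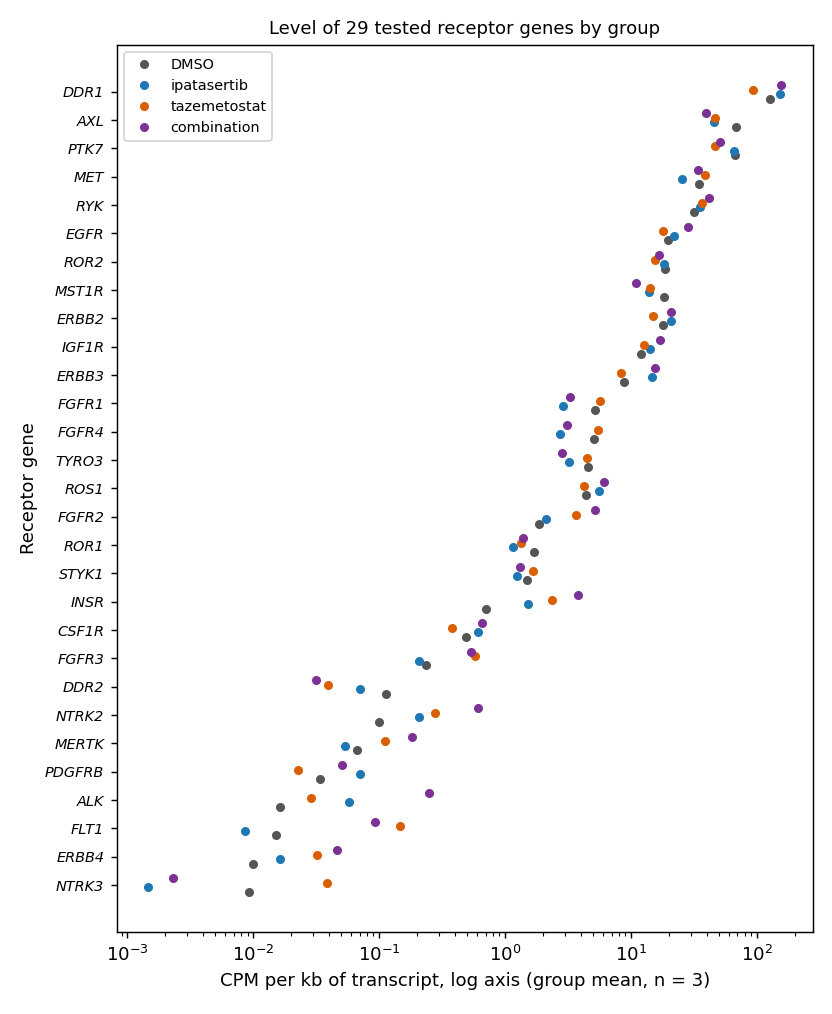
Mean level (n = 3) of the 29 tested receptor transcripts in CPM per kb of transcript (log axis), with a point for each of the 4 groups and a row for each gene, ordered by the DMSO level. The most abundant receptor is DDR1, at 126.7 CPM per kb under DMSO, and INSR moves from 0.700 to 3.78 CPM per kb between DMSO and the combination.

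Against DMSO, receptor transcripts moved in both directions in every treated group. The test was the edgeR quasi-likelihood F-test with Benjamini-Hochberg adjustment over all 14874 genes, changes are log2 with a standard error (SE), and a gene is called at an adjusted p under 0.05. With ipatasertib 11 of the 29 rose and 8 fell, against 54.1% of all genes called in either direction. With tazemetostat 9 rose and 8 fell, beside 46.0% of all genes. With the combination 15 rose and 10 fell, beside 71.0% of all genes. The median log2 change of the receptors was -0.019, 0.079 and 0.39 in these comparisons, and that of all genes was -0.011, 0.017 and 0.022. Nothing particular to the receptors is read from these counts. The 3 comparisons share the DMSO libraries. In bulk RNA, fewer cells of a type and less RNA per cell cannot be told apart.

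Changes of at least 2-fold that were also called numbered 5 of 29 under ipatasertib (6.64% of all genes), 7 under tazemetostat (7.76%) and 10 under both (18.9%). These came from 11 receptors in all, once the comparisons with each single inhibitor are added: INSR, ERBB4, FGFR2, FGFR3, PDGFRB, FLT1, MERTK, DDR2, NTRK2, NTRK3 and ALK. The 5 with ipatasertib were INSR, NTRK2, NTRK3, ALK and PDGFRB, and the count was 1 without DMSO B, and 3 without ipatasertib A or ipatasertib C. All 11 were rare transcripts, none above 1.85 CPM per kb under DMSO. Of the 29, 6 (ERBB4, PDGFRB, FLT1, MERTK, NTRK3 and ALK) had fewer than 3 DMSO libraries at the level of the filter and entered the test through a treated group, so they had to be higher somewhere and their counts support no statement about the list. Of the called changes of at least 2-fold, 2, 4 and 5 under ipatasertib, tazemetostat and both came from the other 23, and 3, 3 and 5 from these 6. Among the 23, 9 rose and 7 fell with ipatasertib, 6 rose and 8 fell with tazemetostat, and 11 rose and 9 fell with the combination, with median log2 changes of -0.019, -0.063 and 0.20. Libraries of the 2 groups did not overlap for 22 of 29 receptors under ipatasertib, 20 under tazemetostat and 26 under both, where the same held for 66.1%, 55.7% and 71.9% of all genes.

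**Figure D2:**
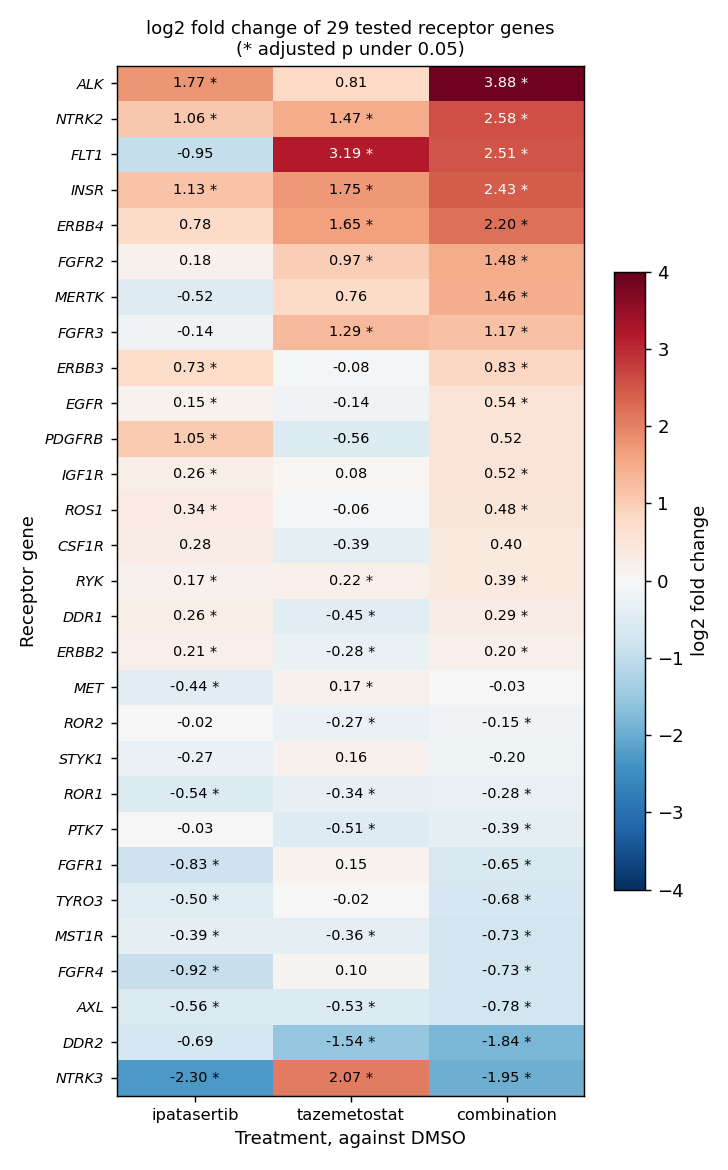
Heat map of the log2 change against DMSO of the 29 tested receptors (rows) for ipatasertib, tazemetostat and the combination (columns), from blue for lower to red for higher, with the value printed and an asterisk where the change was called. The far ends are rare transcripts: ALK at 3.88 in the combination, FLT1 at 3.19 with tazemetostat and NTRK3 at -2.30 with ipatasertib.

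RefSeq promoter sequences in GRCh38.p14 were read for the 35 of 40 members whose symbol had a match in the set used, with a single promoter per gene. Each spans 300 bases, from 250 before the start to 50 after it. ERBB3, INSRR, FGFR1, FLT4 and STYK1 had no match, so the searches below leave them out. CpG dinucleotides, the usual feature of promoters that PRC2 can occupy, numbered 29 in the median receptor promoter and 14 in the median of 35116 promoters. Of the 9 receptors that rose with tazemetostat, 8 had more than 14 CpG, with a range of 10 to 52. Of the 8 that fell, 5 had more than 14, with a range of 0 to 42, and of the 9 that were tested, not called and matched, 6 had more than 14. ROR2 and PTK7, with 42 and 34 CpG, fell, and NTRK2, with 10, rose. The letters GTAAACA, a core FOXO site, searched also as TGTTTAC on the other strand, were found in 1 of 35 receptor promoters and in 3.42% of all promoters. The match lay in NTRK2, 128 bases before the start. Shown are the 150 bases before the start, 5′ to 3′ on the gene's strand, of 5 receptors whose values are given in full below, picked after their values were seen and not to stand for the list. INSR, FLT1 and ALK carry 16, 8 and 19 CpG there and DDR2 carries 0. INSR, FLT1 and NTRK2 rose with tazemetostat, DDR2 fell and ALK was not called. Capitals mark CpG in these, and in NTRK2 they mark the TGTTTAC match. No such match is a binding site by itself.
INSR promoter, chr19:7294415-7294564, minus strand: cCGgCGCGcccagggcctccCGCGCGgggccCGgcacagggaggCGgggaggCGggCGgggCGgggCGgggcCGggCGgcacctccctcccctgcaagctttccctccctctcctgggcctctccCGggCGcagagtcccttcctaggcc
FLT1 promoter, chr13:28495129-28495278, minus strand: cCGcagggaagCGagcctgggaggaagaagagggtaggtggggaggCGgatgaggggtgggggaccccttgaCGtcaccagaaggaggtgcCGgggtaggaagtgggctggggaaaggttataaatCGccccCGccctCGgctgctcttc
ALK promoter, chr2:29921587-29921736, minus strand: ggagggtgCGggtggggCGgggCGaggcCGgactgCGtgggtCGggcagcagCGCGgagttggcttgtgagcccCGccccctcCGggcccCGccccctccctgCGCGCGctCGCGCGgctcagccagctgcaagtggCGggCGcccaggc
DDR2 promoter, chr1:162630713-162630862, plus strand: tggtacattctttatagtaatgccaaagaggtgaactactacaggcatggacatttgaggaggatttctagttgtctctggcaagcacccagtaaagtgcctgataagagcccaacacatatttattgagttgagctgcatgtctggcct
NTRK2 promoter, chr9:84669156-84669305, plus strand: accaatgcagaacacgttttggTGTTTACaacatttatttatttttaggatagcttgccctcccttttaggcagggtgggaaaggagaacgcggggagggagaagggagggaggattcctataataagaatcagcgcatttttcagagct

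In the insulin receptor family, INSR rose in all 3 comparisons with DMSO. INSR, the receptor of insulin, stood in libraries A, B and C at 3.14, 3.699 and 3.07 CPM under DMSO, 7.02, 7.53 and 7.08 CPM under ipatasertib, 11.1, 10.7 and 11.5 CPM under tazemetostat and 17.6, 17.04 and 18.9 CPM under both. All 4 groups were apart, in the order DMSO, ipatasertib, tazemetostat, combination, with no overlap between neighbours. INSR rose by 1.13 (SE 0.11, adjusted p = 3.58e-08) with ipatasertib, by 1.75 (SE 0.098, adjusted p = 3.36e-11) with tazemetostat and by 2.43 (SE 0.097, adjusted p = 3.4e-14) with the combination, a 5.41-fold difference. Its promoter, printed above, is rich in CpG and holds no match to the FOXO letters in the window read. IGF1R, the receptor of insulin-like growth factors, was far more abundant and moved less, at 146 ± 1.52 CPM under DMSO, 175 ± 5.56 CPM under ipatasertib, 154 ± 6.004 CPM under tazemetostat and 209 ± 3.400 CPM under both (SD, n = 3). It rose by 0.26 (SE 0.053, adjusted p = 0.000369) with ipatasertib and by 0.52 (SE 0.053, adjusted p = 3.64e-08) with the combination, and differed by 0.079 (SE 0.053, adjusted p = 0.235) with tazemetostat. That last difference did pass with scaling by total counts alone (adjusted p = 0.026). INSRR, an orphan receptor of alkaline pH, was not tested, with 12, 3, 8 and 5 counts summed over DMSO, ipatasertib, tazemetostat and combination libraries.

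In the ERBB family, the receptors of EGF-like ligands and neuregulins, EGFR, ERBB2 and ERBB3 were higher in the combination than under DMSO. ERBB4, also called as higher, entered the test through treated groups and had to be higher somewhere. ERBB3, a neuregulin receptor with an impaired kinase that recruits PI3K, stood at 52.1 ± 1.302 CPM under DMSO, 86.7 ± 4.34 CPM under ipatasertib, 49.3 ± 1.44 CPM under tazemetostat and 92.4 ± 3.06 CPM under both. It rose by 0.73 (SE 0.059, adjusted p = 4.77e-09) with ipatasertib and by 0.83 (SE 0.059, adjusted p = 2.09e-10) with the combination, and differed by -0.081 (SE 0.059, adjusted p = 0.277) with tazemetostat. EGFR, the receptor of EGF and TGFA, stood in libraries A, B and C at 190.5, 193 and 196 CPM under DMSO, 207, 217 and 220.0 CPM under ipatasertib, 172, 184 and 171 CPM under tazemetostat and 297, 255 and 287 CPM under both. The combination libraries were all above every other library, and those with tazemetostat were all below DMSO. EGFR rose by 0.54 (SE 0.06, adjusted p = 1.46e-07) with the combination and by 0.15 (SE 0.06, adjusted p = 0.0367) with ipatasertib, and differed by -0.14 (SE 0.06, adjusted p = 0.0727) with tazemetostat. ERBB2, the partner of the other ERBB receptors that has no ligand of its own, stood at 81.8 ± 1.23 CPM under DMSO, 94.5 ± 4.96 CPM under ipatasertib, 67.6 ± 4.48 CPM under tazemetostat and 94.04 ± 8.92 CPM under both. It rose by 0.21 (SE 0.071, adjusted p = 0.0187) with ipatasertib and by 0.20 (SE 0.071, adjusted p = 0.0155) with the combination and fell by 0.28 (SE 0.071, adjusted p = 0.00368) with tazemetostat. The smaller rises with ipatasertib turned on single libraries. For EGFR the call did not pass without DMSO A, DMSO B, DMSO C, ipatasertib B or ipatasertib C (adjusted p of 0.0597 to 0.0966). For ERBB2 it did not pass without DMSO C, ipatasertib B or ipatasertib C (adjusted p of 0.0568 to 0.0589). For ERBB2 the rise with the combination did not pass without combination A or combination C (adjusted p of 0.0509 to 0.105). The EGFR difference with tazemetostat did pass with relative log expression size factors, in DESeq2, with the 2 compared groups fitted alone, without ipatasertib A, ipatasertib B, tazemetostat B, combination A or combination B, and without both tazemetostat A and combination B (adjusted p of 0.00835 to 0.0462).

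ERBB4, the neuregulin receptor of differentiating mammary epithelium, was near the limit of detection. It stood at 0.141, 0.0902 and 0.131 CPM under DMSO, 0.276, 0.228 and 0.0869 CPM under ipatasertib, 0.419, 0.349 and 0.401 CPM under tazemetostat and 0.859, 0.112 and 0.708 CPM under both. Its 13 counts over the DMSO libraries compare with 53 in tazemetostat and 53 in combination libraries, and combination B lies among the DMSO values while A and C lie above all other libraries. The change was 1.65 (SE 0.56, adjusted p = 0.0218) with tazemetostat and 2.20 (SE 0.55, adjusted p = 0.00147) with the combination, and 0.78 (SE 0.69, adjusted p = 0.357) with ipatasertib. With tazemetostat the call did not pass without DMSO A, DMSO B or tazemetostat C (adjusted p of 0.0559 to 0.0832).

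**Figure D3:**
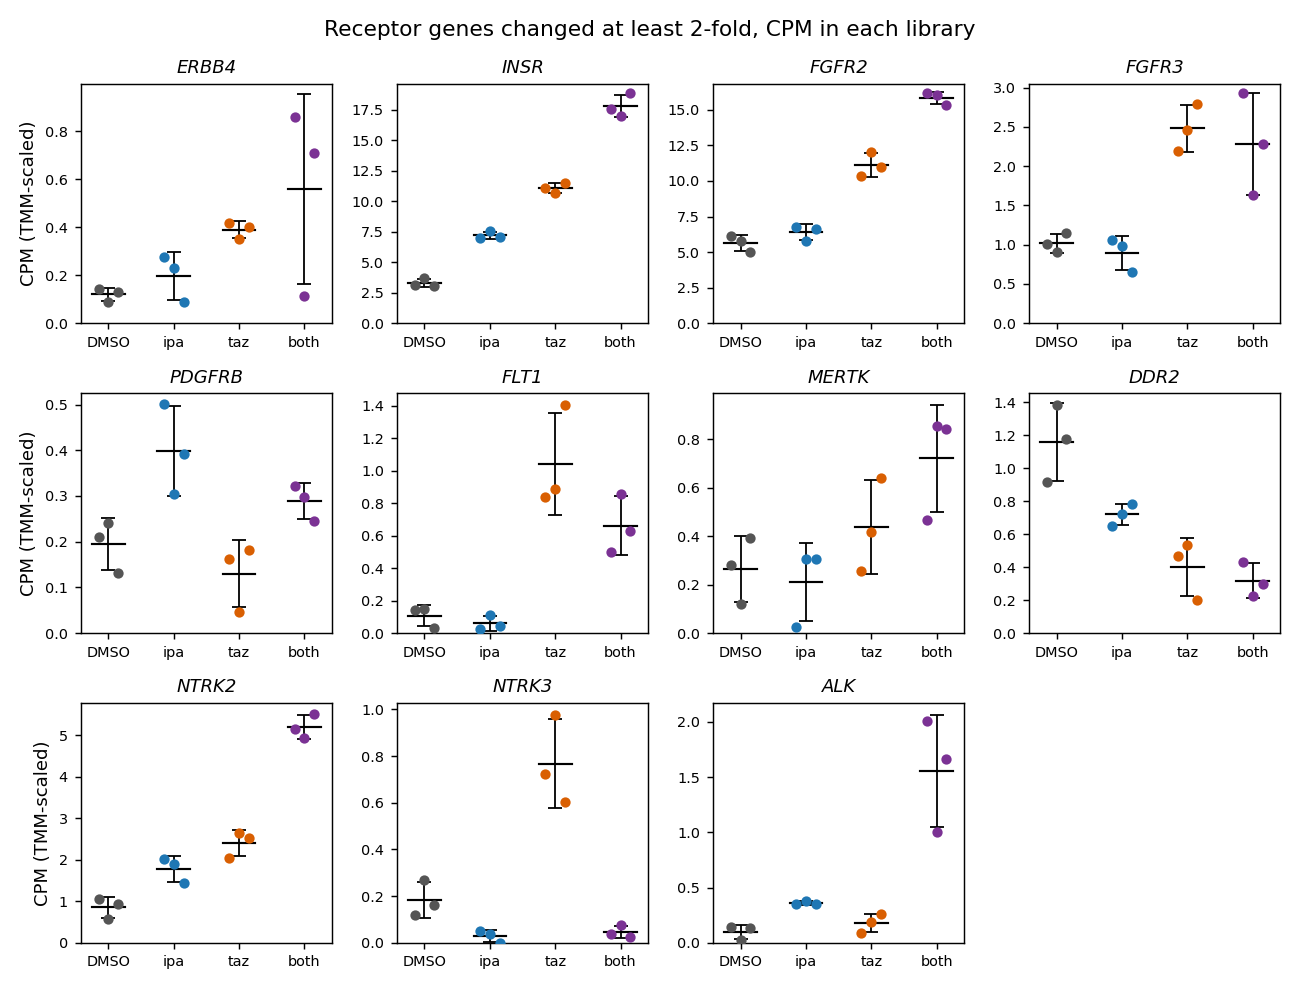
CPM in each library (points), with the mean and SD (bars), of the 11 receptors that were called with a change of at least 2-fold in any of 5 comparisons, in DMSO, ipatasertib, tazemetostat and combination. INSR, NTRK2 and ALK are highest in every combination library, and NTRK3 is highest in every tazemetostat library.

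Within the FGF receptors the 4 genes split into 2 pairs, FGFR2 and FGFR3 against FGFR1 and FGFR4. FGFR2, a receptor of mammary epithelium, stood at 6.12, 5.804 and 5.03 CPM under DMSO, 6.797, 5.78 and 6.65 CPM under ipatasertib, 10.4, 12.02 and 10.98 CPM under tazemetostat and 16.1, 16.03 and 15.3 CPM under both. DMSO and ipatasertib libraries overlapped, and tazemetostat and combination libraries lay above them without overlap. FGFR2 rose by 0.97 (SE 0.098, adjusted p = 1.57e-07) with tazemetostat and by 1.48 (SE 0.098, adjusted p = 6.75e-11) with the combination, and differed by 0.18 (SE 0.11, adjusted p = 0.168) with ipatasertib. That difference did pass with scaling by total counts alone (adjusted p = 0.0268). FGFR3, known from urothelium and cartilage, stood at 1.01, 0.902 and 1.14 CPM under DMSO, 1.05, 0.988 and 0.652 CPM under ipatasertib, 2.19, 2.47 and 2.79 CPM under tazemetostat and 2.94, 1.64 and 2.29 CPM under both. The tazemetostat and combination libraries were all above the other 6. FGFR3 rose by 1.29 (SE 0.21, adjusted p = 5.8e-05) with tazemetostat and by 1.17 (SE 0.22, adjusted p = 9.97e-05) with the combination, and differed by -0.14 (SE 0.26, adjusted p = 0.681) with ipatasertib.

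FGFR1, a receptor often amplified in breast cancer, went the other way, at 30.4 ± 1.62 CPM under DMSO, 17.1 ± 1.12 CPM under ipatasertib, 33.7 ± 1.83 CPM under tazemetostat and 19.3 ± 1.53 CPM under both. It fell with ipatasertib, with a log2 change of -0.83 (SE 0.08, adjusted p = 4.99e-08), and with the combination, at -0.65 (SE 0.079, adjusted p = 4.36e-07). With tazemetostat the value was 0.15 (SE 0.075, adjusted p = 0.113). That value did pass with scaling by total counts alone (adjusted p = 0.0223). FGFR4, the receptor of FGF19, had the same order of groups, at 15.97 ± 0.781 CPM under DMSO, 8.44 ± 0.382 CPM under ipatasertib, 17.1 ± 2.398 CPM under tazemetostat and 9.63 ± 1.64 CPM under both. Its log2 change was -0.92 (SE 0.12, adjusted p = 1.81e-06) with ipatasertib, -0.73 (SE 0.11, adjusted p = 1.23e-05) with the combination and 0.10 (SE 0.11, adjusted p = 0.46) with tazemetostat.

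The 2 neurotrophin receptors parted. NTRK2, the receptor of BDNF, stood at 1.05, 0.571 and 0.948 CPM under DMSO, 2.03, 1.901 and 1.43 CPM under ipatasertib, 2.05, 2.65 and 2.53 CPM under tazemetostat and 5.16, 4.95 and 5.53 CPM under both. Each treated group lay above DMSO, and all combination libraries lay above all others. NTRK2 rose by 1.06 (SE 0.22, adjusted p = 0.000412) with ipatasertib, by 1.47 (SE 0.20, adjusted p = 7.27e-06) with tazemetostat and by 2.58 (SE 0.19, adjusted p = 2.87e-10) with the combination, 5.99-fold in all. NTRK3, the receptor of neurotrophin-3, stood at 0.117, 0.271 and 0.163 CPM under DMSO, 0.0502, 0.0380 and 0 CPM under ipatasertib, 0.722, 0.977 and 0.602 CPM under tazemetostat and 0.0358, 0.0744 and 0.0272 CPM under both. It was high in the tazemetostat libraries alone, where 103 counts were summed, against 19 under DMSO, 3 with ipatasertib and 4 with the combination. NTRK3 rose by 2.07 (SE 0.37, adjusted p = 0.000156) with tazemetostat and fell with ipatasertib, at -2.30 (SE 0.77, adjusted p = 0.0158), and with the combination, at -1.95 (SE 0.72, adjusted p = 0.0206). From the counts alone the ratio to DMSO was 0.189 (95% interval 0.0357 to 0.641) with ipatasertib and 0.245 (95% interval 0.0606 to 0.737) with the combination, intervals that cover counting error only. The fall with ipatasertib did not pass without DMSO B or ipatasertib C (adjusted p of 0.0548 to 0.0739). Without ipatasertib A it was -2.93. The fall with the combination did not pass without DMSO B, combination A or combination C (adjusted p of 0.0518 to 0.0915).

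ALK and FLT1, receptors of neural and endothelial cells, were both near the limit of detection under DMSO and entered the test through the treated groups in which they were high. ALK, the receptor of ALKAL cytokines in the developing nervous system, stood at 0.141, 0.0301 and 0.131 CPM under DMSO, 0.351, 0.380 and 0.348 CPM under ipatasertib, 0.0931, 0.186 and 0.261 CPM under tazemetostat and 2.01, 1.004 and 1.66 CPM under both. All ipatasertib libraries were above all DMSO libraries, and all combination libraries were above the rest. ALK rose by 1.77 (SE 0.55, adjusted p = 0.0108) with ipatasertib and by 3.88 (SE 0.42, adjusted p = 7.01e-08) with the combination, from 11 counts over the DMSO libraries to 144, a count ratio of 15.2 (95% interval 8.26 to 31.2). The value with tazemetostat was 0.81 (SE 0.59, adjusted p = 0.271). The rise with ipatasertib did not pass without DMSO B (adjusted p = 0.0518). FLT1, a receptor of VEGFA and PGF that endothelium and placenta express, stood at 0.141, 0.150 and 0.0327 CPM under DMSO, 0.0251, 0.114 and 0.0435 CPM under ipatasertib, 0.838, 0.884 and 1.41 CPM under tazemetostat and 0.501, 0.855 and 0.626 CPM under both. The tazemetostat and combination libraries were all above the other 6, which overlapped each other. FLT1 rose by 3.19 (SE 0.41, adjusted p = 4.27e-06) with tazemetostat and by 2.51 (SE 0.47, adjusted p = 9.13e-05) with the combination, and differed by -0.95 (SE 0.81, adjusted p = 0.338) with ipatasertib. The summed level of 5 endothelial markers was 1.26 to 1.57 CPM under DMSO, 3.48 to 4.21 under ipatasertib, 2.58 to 2.86 under tazemetostat and 5.91 to 7.76 under both, with 3 of the 5 tested, and none was at 0 in a whole group. Their part in the FLT1 result was not tested. KDR and FLT4, the other VEGF receptors, stayed at 7 counts or fewer in each group. LTK, the relative of ALK, had 10, 5, 15 and 23 counts in DMSO, ipatasertib, tazemetostat and combination libraries, a count ratio of 2.68 (95% interval 1.23 to 6.299) between combination and DMSO.

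Both collagen receptors fell under tazemetostat, and they parted in the combination. DDR2, the collagen receptor of mesenchymal cells, stood at 0.914, 1.38 and 1.18 CPM under DMSO, 0.652, 0.722 and 0.782 CPM under ipatasertib, 0.466, 0.535 and 0.201 CPM under tazemetostat and 0.430, 0.223 and 0.299 CPM under both. Every treated library was below every DMSO library. DDR2 fell with tazemetostat, at -1.54 (SE 0.30, adjusted p = 0.000381), and with the combination, at -1.84 (SE 0.34, adjusted p = 7.83e-05), and the value with ipatasertib was -0.69 (SE 0.29, adjusted p = 0.0554). The ipatasertib difference did pass with the 2 compared groups fitted alone, without DMSO A or tazemetostat C, and without both tazemetostat A and combination B (adjusted p of 0.0268 to 0.0481). DDR1, the collagen receptor of epithelium, stood at 491, 509 and 498 CPM under DMSO, 557, 610.1 and 628 CPM under ipatasertib, 399, 346 and 348 CPM under tazemetostat and 689, 518 and 623 CPM under both. Ipatasertib and combination libraries lay above DMSO, and tazemetostat libraries lay below it. DDR1 rose by 0.26 (SE 0.081, adjusted p = 0.0107) with ipatasertib and by 0.29 (SE 0.081, adjusted p = 0.00364) with the combination, and fell with tazemetostat, at -0.45 (SE 0.082, adjusted p = 0.000159). Summed fibroblast markers, 7 genes of which 6 were tested, were 605 to 626 CPM under DMSO, 400.2 to 439 under ipatasertib, 156 to 160.2 under tazemetostat and 122 to 128 under both. All 6 fell with tazemetostat, none was at 0, and their part in the DDR2 result was not tested.

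The TAM receptors form a family whose ligands are GAS6 and PROS1. AXL and TYRO3 fell with ipatasertib and the combination, while MERTK, a rare transcript, rose in the combination. AXL stood at 320.2 ± 5.63 CPM under DMSO, 217 ± 1.98 CPM under ipatasertib, 222 ± 15.5 CPM under tazemetostat and 186 ± 14.6 CPM under both. It fell in all 3 comparisons, with log2 changes of -0.56 (SE 0.063, adjusted p = 3.52e-07), -0.53 (SE 0.063, adjusted p = 1.21e-06) and -0.78 (SE 0.063, adjusted p = 1.24e-09) for ipatasertib, tazemetostat and the combination. TYRO3, whose reads may be shared with a pseudogene copy, stood at 37.1 ± 1.28 CPM under DMSO, 26.3 ± 1.13 CPM under ipatasertib, 36.6 ± 2.31 CPM under tazemetostat and 23.1 ± 3.74 CPM under both. It fell with ipatasertib, at -0.50 (SE 0.089, adjusted p = 0.000103), and with the combination, at -0.68 (SE 0.09, adjusted p = 1.27e-06), and the value with tazemetostat was -0.02 (SE 0.086, adjusted p = 0.865). MERTK, the TAM receptor of macrophages, stood at 0.281, 0.120 and 0.392 CPM under DMSO, 0.0251, 0.304 and 0.304 CPM under ipatasertib, 0.256, 0.419 and 0.642 CPM under tazemetostat and 0.465, 0.855 and 0.844 CPM under both. The combination libraries were above all DMSO libraries, while the tazemetostat and ipatasertib libraries overlapped DMSO. MERTK rose by 1.46 (SE 0.48, adjusted p = 0.0111) with the combination, and had values of -0.52 (SE 0.65, adjusted p = 0.523) with ipatasertib and 0.76 (SE 0.50, adjusted p = 0.224) with tazemetostat. The call did not pass without DMSO B or combination C (adjusted p of 0.0513 to 0.0606).

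The 2 receptors of the MET family, MET and MST1R, the receptor of macrophage-stimulating protein, both fell with ipatasertib. MET stood at 230.0 ± 7.86 CPM under DMSO, 169 ± 3.29 CPM under ipatasertib, 258 ± 16.2 CPM under tazemetostat and 226 ± 12.7 CPM under both. Its log2 change was -0.44 (SE 0.06, adjusted p = 3.93e-06) with ipatasertib and 0.17 (SE 0.059, adjusted p = 0.0286) with tazemetostat, and in the combination it was -0.025 (SE 0.06, adjusted p = 0.719). The rise with tazemetostat did not pass without DMSO A, DMSO B, ipatasertib A, ipatasertib B, ipatasertib C, tazemetostat B, tazemetostat C or combination C (adjusted p of 0.0571 to 0.277). MST1R stood at 82.6 ± 3.78 CPM under DMSO, 63.3 ± 2.27 CPM under ipatasertib, 64.4 ± 2.95 CPM under tazemetostat and 49.98 ± 4.09 CPM under both. It was lower in all 3 groups, at -0.39 (SE 0.067, adjusted p = 6.81e-05) with ipatasertib, -0.36 (SE 0.066, adjusted p = 2e-04) with tazemetostat and -0.73 (SE 0.067, adjusted p = 9.21e-09) with the combination, and no library of any treated group reached DMSO.

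Of the 4 WNT-binding receptors, 3 fell with tazemetostat and RYK rose. PTK7 stood at 284 ± 4.47 CPM under DMSO, 278 ± 5.45 CPM under ipatasertib, 199.6 ± 7.25 CPM under tazemetostat and 216 ± 19.9 CPM under both. It fell with tazemetostat, at -0.51 (SE 0.061, adjusted p = 1.67e-06), and with the combination, at -0.39 (SE 0.062, adjusted p = 1.1e-05), and the value with ipatasertib was -0.028 (SE 0.061, adjusted p = 0.721). ROR2, a WNT5A receptor, stood at 75.97 ± 1.32 CPM under DMSO, 75.00 ± 0.826 CPM under ipatasertib, 63.2 ± 2.18 CPM under tazemetostat and 68.4 ± 3.51 CPM under both. It changed by -0.27 (SE 0.057, adjusted p = 0.000927) with tazemetostat and -0.15 (SE 0.058, adjusted p = 0.025) with the combination, and the value with ipatasertib was -0.019 (SE 0.058, adjusted p = 0.806). ROR1, a WNT5A receptor of embryonic tissue, stood at 9.805 ± 0.660 CPM under DMSO, 6.76 ± 0.549 CPM under ipatasertib, 7.75 ± 0.326 CPM under tazemetostat and 8.04 ± 0.871 CPM under both. It fell with ipatasertib, at -0.54 (SE 0.10, adjusted p = 0.000179), with tazemetostat, at -0.34 (SE 0.097, adjusted p = 0.00798), and with the combination, at -0.28 (SE 0.1, adjusted p = 0.016). RYK was the only 1 of the 4 to rise, by 0.17 (SE 0.066, adjusted p = 0.0324), 0.22 (SE 0.066, adjusted p = 0.011) and 0.39 (SE 0.066, adjusted p = 2.76e-05). The ROR1 call in the combination did not pass with scaling by total counts alone, without DMSO C, combination B or combination C, and without both tazemetostat A and combination B (adjusted p of 0.0632 to 0.194). That of ROR2 did not pass with scaling by total counts alone, without DMSO A, DMSO C, ipatasertib C, combination B or combination C, and without both tazemetostat A and combination B (adjusted p of 0.05 to 0.822). The RYK rise with ipatasertib did not pass without DMSO A, DMSO B or ipatasertib A (adjusted p of 0.0593 to 0.113). Its rise with tazemetostat did not pass without DMSO A, DMSO B, tazemetostat B or tazemetostat C (adjusted p of 0.0589 to 0.131).

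**Figure D4:**
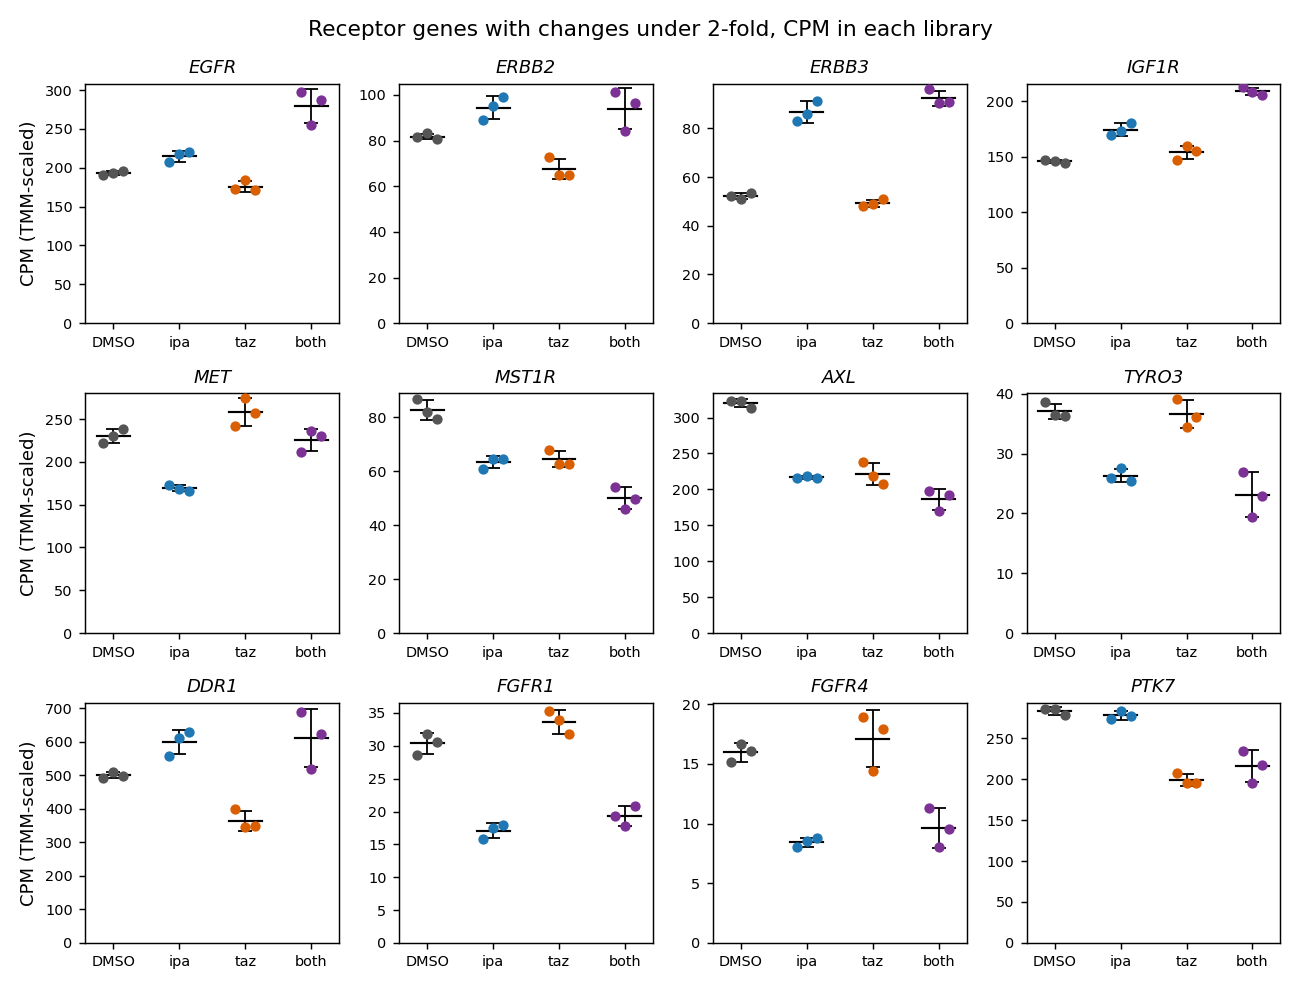
CPM in each library (points), with the mean and SD (bars), of 12 receptors that changed by less than 2-fold in every comparison, in DMSO, ipatasertib, tazemetostat and combination. AXL and MST1R are below DMSO in every treated library, and EGFR is above DMSO in every combination library.

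ROS1, a receptor of the epididymis that is rearranged in some lung cancers, stood at 32.8 ± 1.42 CPM under DMSO, 41.5 ± 3.399 CPM under ipatasertib, 31.4 ± 2.07 CPM under tazemetostat and 45.7 ± 3.06 CPM under both. It rose by 0.34 (SE 0.076, adjusted p = 0.000835) with ipatasertib and by 0.48 (SE 0.076, adjusted p = 1.2e-05) with the combination, with -0.063 (SE 0.076, adjusted p = 0.522) for tazemetostat. STYK1, a kinase-like membrane protein of uncertain activity, stood at 4.48 ± 0.0801 CPM under DMSO, 3.73 ± 0.227 CPM under ipatasertib, 5.004 ± 0.317 CPM under tazemetostat and 3.91 ± 0.245 CPM under both and was not called against DMSO in any group, with values of -0.27 (SE 0.12, adjusted p = 0.0572), 0.16 (SE 0.11, adjusted p = 0.238) and -0.20 (SE 0.11, adjusted p = 0.122). CSF1R, the receptor of macrophage colony-stimulating factor, stood at 1.96 ± 0.208 CPM under DMSO, 2.41 ± 0.120 CPM under ipatasertib, 1.51 ± 0.242 CPM under tazemetostat and 2.61 ± 0.669 CPM under both. It was not called against DMSO, with 0.28 (SE 0.19, adjusted p = 0.211) for ipatasertib, -0.39 (SE 0.19, adjusted p = 0.0983) for tazemetostat and 0.40 (SE 0.18, adjusted p = 0.0576) for the combination. The tazemetostat value did pass without tazemetostat B or combination A (adjusted p of 0.0482 to 0.0491). The combination value did pass with scaling by total counts alone, without combination B, and without both tazemetostat A and combination B (adjusted p of 0.0111 to 0.0144). PDGFRB, the receptor of pericytes and fibroblasts, stood at 0.211, 0.241 and 0.131 CPM under DMSO, 0.502, 0.304 and 0.391 CPM under ipatasertib, 0.163, 0.0465 and 0.181 CPM under tazemetostat and 0.322, 0.298 and 0.245 CPM under both. Its ipatasertib and combination libraries were above all DMSO libraries, and those of tazemetostat overlapped DMSO. The combination libraries were also above those of tazemetostat, with a log2 difference of 1.09 (SE 0.47, adjusted p = 0.0532). That difference did pass with scaling by total counts alone and without tazemetostat C (adjusted p of 0.0389 to 0.0419). PDGFRB rose by 1.05 (SE 0.43, adjusted p = 0.0437) with ipatasertib, with -0.56 (SE 0.49, adjusted p = 0.371) for tazemetostat and 0.52 (SE 0.46, adjusted p = 0.314) for the combination. The rise did not pass without the filter on low counts, in DESeq2, with a replicate block, and without DMSO A, DMSO B, DMSO C, ipatasertib A, ipatasertib C or combination A (adjusted p of 0.0509 to 0.224).

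The 11 receptors that were not tested (INSRR, PDGFRA, KIT, FLT3, KDR, FLT4, RET, LTK, TIE1, TEK and MUSK) had at most 32 counts summed over any group. The 2 with the widest difference between the combination and DMSO were FLT3 and KIT. FLT3, the receptor of blood cell progenitors, had 1, 5, 23 and 32 counts in DMSO, ipatasertib, tazemetostat and combination libraries. The count ratio to DMSO was 18.1 (95% interval 2.93 to 743) with tazemetostat and 37.2 (95% interval 6.22 to 1516) with the combination. KIT, the stem cell factor receptor, had 3, 7, 13 and 24 counts, with a ratio of 9.31 (95% interval 2.83 to 48.3) in the combination. RET, the receptor of GDNF family ligands, had 5, 9, 4 and 8 counts, TIE1 and TEK, the angiopoietin receptors of endothelium, had 6 or fewer in each group, and MUSK, of the neuromuscular junction, had 2 or fewer. The ratios carry counting error only and no test between groups, since none of the 11 was in the main fit. Without both tazemetostat A and combination B, 30 receptors passed the filter. FLT3 alone among the 11 had 2 combination libraries at the level of the filter. In that fit 8 and 11 receptors were called with at least 2-fold changes with tazemetostat and the combination, against 7 and 10 in the main fit. Beside FLT3 and KIT, the pan-leukocyte marker PTPRC stood at 0.234, 0.331 and 0.392 CPM under DMSO and 1.47, 2.19 and 1.55 CPM under both. Of the 6 leukocyte markers 4 were tested, and in the combination 1 of these rose and 2 fell. Together the 6 markers, mostly CD68, summed to 364 to 418 CPM under DMSO and 219 to 266 CPM under both. Their part in these counts was not tested.

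The combination was then set against each inhibitor alone, which shows what adding the other agent changed. Against ipatasertib 12 receptors were higher and 4 lower, beside 39.1% of all genes called, and 9 were called and changed by at least 2-fold, beside 7.91%. The 8 higher by that size were INSR, ERBB4, FGFR2, FGFR3, FLT1, MERTK, NTRK2 and ALK, and the 1 lower was DDR2. Of these 9, 5 came from the 23 receptors with all 3 DMSO libraries at the level of the filter. The other 4, ERBB4, FLT1, MERTK and ALK, were among the 6 that entered the test through a treated group. The others called were EGFR, IGF1R, MET and RYK, higher by 0.38 (SE 0.06, adjusted p = 4.49e-05), 0.26 (SE 0.053, adjusted p = 0.000629), 0.42 (SE 0.06, adjusted p = 1.45e-05) and 0.22 (SE 0.066, adjusted p = 0.0134), and AXL, MST1R and PTK7, lower at -0.22 (SE 0.063, adjusted p = 0.0101), -0.34 (SE 0.068, adjusted p = 0.000524) and -0.36 (SE 0.062, adjusted p = 9.25e-05). For RYK the call did not pass without ipatasertib B or ipatasertib C (adjusted p of 0.0586 to 0.0708). INSR was higher by 1.31 (SE 0.09, adjusted p = 6.34e-10), FLT1 by 3.47 (SE 0.58, adjusted p = 7.67e-05) and ALK by 2.11 (SE 0.34, adjusted p = 5.48e-05). FGFR2 and FGFR3 were higher by 1.30 (SE 0.099, adjusted p = 2.87e-09) and 1.31 (SE 0.23, adjusted p = 0.000173), and NTRK2 by 1.52 (SE 0.17, adjusted p = 7.76e-07). MERTK was higher by 1.98 (SE 0.55, adjusted p = 0.00711) and ERBB4 by 1.43 (SE 0.52, adjusted p = 0.034), while DDR2 was lower, at -1.15 (SE 0.38, adjusted p = 0.0209). For ERBB4 the call did not pass in DESeq2 and without ipatasertib B, ipatasertib C, combination A or combination C (adjusted p of 0.0605 to 0.148). For MERTK it did not pass without ipatasertib A (adjusted p = 0.0705). The MERTK difference without that library was 1.23, and that of FLT1 without ipatasertib B was 4.21. For DDR2 it did not pass without ipatasertib C, combination B or combination C and without both tazemetostat A and combination B (adjusted p of 0.0508 to 0.0674). Without both tazemetostat A and combination B, 17 receptors were called as higher, against 12 with them. Among receptors also tested in the main fit, those added were FGFR1, FGFR4, DDR1 and ROR1 (adjusted p = 0.00849, 0.0204, 0.0287 and 0.0201, from 0.0809, 0.226, 0.812 and 0.0625 with both libraries). ROR2 had -0.13 (SE 0.058, adjusted p = 0.0777). It did pass with relative log expression size factors, in DESeq2 and without the filter (adjusted p of 0.0178 to 0.0401). It also passed without tazemetostat A or combination A (adjusted p of 0.0174 to 0.0323). TYRO3 had -0.18 (SE 0.092, adjusted p = 0.122) and did pass without the filter or combination A (adjusted p of 0.00541 to 0.0346).

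Against tazemetostat 12 receptors were higher and 8 lower, beside 60.6% of all genes, and 3 changed by at least 2-fold with a call, beside 9.41%. ALK was higher by 3.07 (SE 0.35, adjusted p = 2.84e-07) and NTRK2 by 1.11 (SE 0.16, adjusted p = 4.17e-06), and NTRK3 was lower, at -4.02 (SE 0.52, adjusted p = 1.53e-06), from 103 to 4 counts, a count ratio of 0.0576 (95% interval 0.0154 to 0.152). Of these 3, 1 came from the 23 receptors with every DMSO library at the level of the filter. The other 2, ALK and NTRK3, were among the 6 that entered the test through a treated group. Without combination B, or without both it and tazemetostat A, the count of called 2-fold changes was 5. Among abundant receptors, ERBB3 was higher by 0.91 (SE 0.059, adjusted p = 1.18e-10), DDR1 by 0.74 (SE 0.082, adjusted p = 1.73e-07), EGFR by 0.67 (SE 0.06, adjusted p = 1.11e-08) and ERBB2 by 0.48 (SE 0.071, adjusted p = 8.3e-06). FGFR1 and FGFR4 were lower, at -0.80 (SE 0.078, adjusted p = 3.52e-08) and -0.83 (SE 0.11, adjusted p = 2.96e-06), and so was TYRO3, at -0.66 (SE 0.089, adjusted p = 2.63e-06). CSF1R, not called against DMSO, was higher by 0.79 (SE 0.18, adjusted p = 0.00103). The remaining higher values were 0.69 (SE 0.083, adjusted p = 6.09e-07) for INSR, 0.51 (SE 0.09, adjusted p = 6.69e-05) for FGFR2, 0.44 (SE 0.053, adjusted p = 5.56e-07) for IGF1R, 0.54 (SE 0.075, adjusted p = 3.59e-06) for ROS1 and 0.17 (SE 0.066, adjusted p = 0.0279) for RYK. The remaining lower values were -0.25 (SE 0.063, adjusted p = 0.00205) for AXL, -0.37 (SE 0.067, adjusted p = 9.85e-05) for MST1R, -0.19 (SE 0.06, adjusted p = 0.00929) for MET and -0.36 (SE 0.11, adjusted p = 0.00857) for STYK1. AXL and MST1R were thus called as lower under both inhibitors than under either. INSR, NTRK2, ALK, FGFR2, EGFR, IGF1R and RYK were called as higher than under either. For RYK the combination and tazemetostat libraries overlapped. The MET call did not pass with scaling by total counts alone and without tazemetostat B or combination A (adjusted p of 0.0644 to 0.0963). That of AXL did not pass without both tazemetostat A and combination B (adjusted p = 0.105). That of RYK did not pass with the 2 compared groups fitted alone, without tazemetostat A, and without both tazemetostat A and combination B (adjusted p of 0.0615 to 0.0924). That of STYK1 did not pass without combination C (adjusted p = 0.0735). FLT1 had a value of -0.68 (SE 0.30, adjusted p = 0.0588) and ERBB4 a value of 0.55 (SE 0.42, adjusted p = 0.265). For FLT1 it did pass without tazemetostat A or combination B and without both tazemetostat A and combination B (adjusted p of 0.0187 to 0.0456). For ERBB4 it did pass without combination B and without both tazemetostat A and combination B (adjusted p of 0.0115 to 0.016). PTK7 and ROR2 were not called (adjusted p = 0.115 and 0.0946) but passed as higher under alternatives. For PTK7 these were total counts alone, without tazemetostat A or combination B, and without both (adjusted p of 3.21e-05 to 0.0325). ROR2 passed with total counts alone and without DMSO A, ipatasertib C or tazemetostat A (adjusted p of 0.0121 to 0.0432). It also passed without combination B, without combination C, and without both tazemetostat A and combination B (adjusted p of 0.00182 to 0.0464).

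Whether the combination departs from the sum of the log2 changes of its parts was tested as an interaction, the log2 change in the combination minus both single changes. Of 29 receptors, 3 were called, all above 0, beside 3.62% of all genes called in either direction. For EGFR the interaction was 0.52 (SE 0.085, adjusted p = 0.00146), for DDR1 0.48 (SE 0.12, adjusted p = 0.0218) and for ROR1 0.59 (SE 0.14, adjusted p = 0.0237). In EGFR a rise with ipatasertib and a value below 0 with tazemetostat met a rise in the combination larger than either. In DDR1 the log2 changes were 0.26 with ipatasertib, -0.45 with tazemetostat and 0.29 in the combination. In ROR1 all 3 were below 0, and the combination, at -0.28, was nearer to 0 than either. Its libraries overlapped those of each inhibitor. The combination was not called against ipatasertib (0.26, SE 0.11, adjusted p = 0.0625) or tazemetostat (0.052, SE 0.1, adjusted p = 0.673). The DDR1 call did not pass without DMSO A, DMSO B, ipatasertib A, tazemetostat B, tazemetostat C or combination C (adjusted p of 0.0549 to 0.0812). The ROR1 call did not pass without DMSO C, ipatasertib A, ipatasertib B, tazemetostat C or combination C (adjusted p of 0.0512 to 0.0785). The EGFR call passed under all 18 alternatives run for it.

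The other 26 interactions did not pass. Of all 29, 23 were above 0 and 6 below, and 10 had an unadjusted p under 0.05. These are 79.3% and 34.5% of the receptors, beside 50.2% and 18.5% of all genes tested. INSR, which rose with each inhibitor, had -0.44 (SE 0.13, adjusted p = 0.0753), NTRK2 had 0.048 (SE 0.28, adjusted p = 0.957) and ALK had 1.30 (SE 0.75, adjusted p = 0.372), the last with an SE too wide to tell a sum from a departure of that size. AXL, which fell with each, had 0.32 (SE 0.089, adjusted p = 0.054). The number called was 1 without ipatasertib A, tazemetostat C or combination C, 5 without tazemetostat A, 7 without combination B, and 11 without tazemetostat A and combination B together, of which 10 were above 0 and INSR was below. For AXL the interaction did pass in DESeq2, with a replicate block, without tazemetostat A or combination B, and without both tazemetostat A and combination B (adjusted p of 2.1e-06 to 0.035). For INSR it did pass with scaling by total counts alone and without both tazemetostat A and combination B (adjusted p of 0.0322 to 0.0398). Without both libraries the interaction was also called for ERBB2, PTK7, MET, ROR2, IGF1R and ERBB3 (adjusted p = 3.84e-05, 0.00211, 0.026, 0.0345, 0.0392 and 0.0479). With both libraries their adjusted p was 0.143, 0.406, 0.102, 0.412, 0.194 and 0.269. Leaving out the libraries most unlike their mates lowers the spread by choice, so the smaller adjusted p may be too small.

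**Figure D5:**
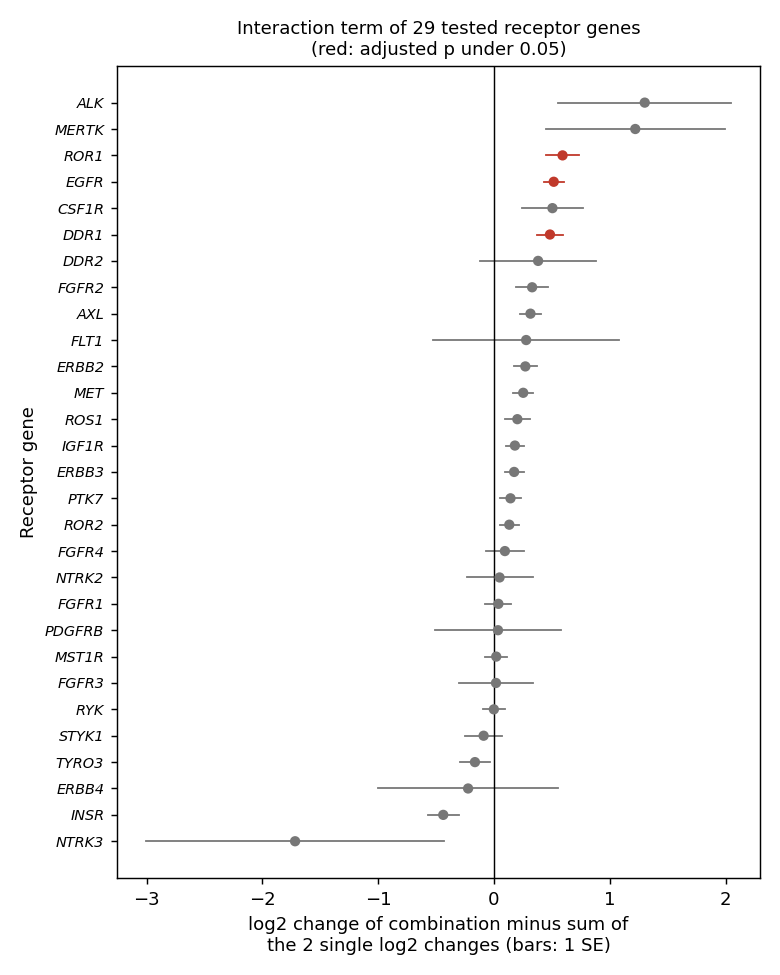
Interaction of the 29 tested receptors (rows), given as the combination's log2 change less both single log2 changes (horizontal axis), with bars of 1 SE and red for an adjusted p under 0.05. EGFR, DDR1 and ROR1, the 3 in red, lie to the right of 0, and the rare transcripts ALK, MERTK and NTRK3 have the widest distance from 0 with long bars.

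The ligands of these receptors were counted from a list of 54 genes, of which 37 were tested. With ipatasertib 10 rose and 14 fell, with tazemetostat 9 and 14, and with the combination 14 and 12, with 64.9%, 62.2% and 70.3% called beside 54.1%, 46.0% and 71.0% of all genes, and median log2 changes of -0.06, -0.065 and 0.25. Changes are given in the order ipatasertib, tazemetostat, combination. NRG1, the neuregulin that binds ERBB3 and ERBB4, stood at 6.97 ± 0.461 CPM under DMSO, 0.942 ± 0.132 CPM under ipatasertib, 4.17 ± 0.544 CPM under tazemetostat and 1.62 ± 0.158 CPM under both and changed by -2.91 (SE 0.16), -0.74 (SE 0.12) and -2.11 (SE 0.14). All 3 changes were called. Its interaction was 1.54 (SE 0.23, adjusted p = 0.000648). BDNF, the ligand of NTRK2, fell in each, by values of -1.10 (SE 0.095), -0.45 (SE 0.087) and -1.58 (SE 0.098). ARTN, a RET ligand, also fell in each, at -1.38 (SE 0.15), -0.63 (SE 0.13) and -1.79 (SE 0.16). PROS1, a TAM ligand, rose in each, by 0.96 (SE 0.20), 1.02 (SE 0.19) and 1.80 (SE 0.19). CSF1, the ligand of CSF1R, fell with tazemetostat and the combination, at -1.61 (SE 0.077, adjusted p = 3.04e-12) and -0.51 (SE 0.075, adjusted p = 5.03e-06). PDGFD, a PDGFRB ligand, rose by 1.14 (SE 0.15, adjusted p = 2.29e-06) with ipatasertib and 1.35 (SE 0.15, adjusted p = 7.77e-08) with the combination. NRG2 and NRTN, a neuregulin and a RET ligand, rose with tazemetostat by 1.62 (SE 0.45, adjusted p = 0.00674) and 1.30 (SE 0.40, adjusted p = 0.013), and with the combination by 1.29 (SE 0.50, adjusted p = 0.028) and 1.69 (SE 0.41, adjusted p = 0.00106). For NRG2 with tazemetostat the call did not pass without DMSO A (adjusted p = 0.0619). For NRG2 with the combination it did not pass without the filter on low counts, in DESeq2, and without DMSO A, DMSO C or combination A (adjusted p of 0.0503 to 0.139). For NRTN with tazemetostat it did not pass without DMSO C or tazemetostat C (adjusted p of 0.0627 to 0.0643).

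All 30 listed adaptors, the proteins that dock on active receptors, were tested. With ipatasertib 15 rose and 6 fell, with tazemetostat 11 and 8, and with the combination 16 and 9, with 70%, 63.3% and 83.3% called beside 54.1%, 46.0% and 71.0% of all genes, and median log2 changes of 0.20, 0.0055 and 0.28. SHC2, a neuronal SHC adaptor, stood at 0.157 ± 0.0341 CPM under DMSO, 0.722 ± 0.291 CPM under ipatasertib, 0.727 ± 0.157 CPM under tazemetostat and 2.96 ± 0.780 CPM under both and rose by 2.08 (SE 0.44), 2.16 (SE 0.41) and 4.19 (SE 0.34), 18.3-fold in the combination. Its DMSO level is below the 0.283 CPM of the filter, so SHC2 entered the test through a treated group and had to be higher somewhere. The counts above include SHC2, and the pathway lists were not split by the DMSO level. IRS2, the substrate that carries insulin and IGF signals to PI3K, rose by 1.42 (SE 0.064), 0.60 (SE 0.063) and 2.22 (SE 0.064). GRB7, an ERBB adaptor, rose by 1.55 (SE 0.11), 0.57 (SE 0.11) and 2.399 (SE 0.11), GAB2, a docking protein, by 1.38 (SE 0.12), 0.46 (SE 0.12) and 2.50 (SE 0.11), and VAV3, an exchange factor, by 1.03 (SE 0.085), 0.53 (SE 0.084) and 1.67 (SE 0.084). PLCG2, a phospholipase, rose by 0.66 (SE 0.24), 1.87 (SE 0.20) and 2.25 (SE 0.20). GRB10, an inhibitor of insulin signalling, rose with tazemetostat and the combination, by 2.22 (SE 0.095, adjusted p = 5.36e-13) and 2.21 (SE 0.097, adjusted p = 1.36e-13), with -0.18 (SE 0.12, adjusted p = 0.213) for ipatasertib. DOK7, an activator of MUSK, rose by 1.46 (SE 0.29, adjusted p = 0.000399) and 2.70 (SE 0.27, adjusted p = 2.09e-08) in those groups. The interaction of GAB2 was 0.65 (SE 0.16, adjusted p = 0.0221). The call did not pass without DMSO A, DMSO B, ipatasertib A, ipatasertib C, tazemetostat C or combination C (adjusted p of 0.0518 to 0.0908). The PLCG2 rise with ipatasertib did not pass without DMSO C or ipatasertib A (adjusted p of 0.123 to 0.198).

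All 30 listed negative regulators and sheddases were tested as well. With ipatasertib 7 rose and 13 fell, with tazemetostat 4 and 11, and with the combination 9 and 12, with 66.7%, 50% and 70% called beside 54.1%, 46.0% and 71.0% of all genes, and median log2 changes of -0.12, -0.063 and -0.077. SPRY1, a Sprouty inhibitor of receptor signalling to ERK, rose by 0.93 (SE 0.27), 1.496 (SE 0.24) and 3.23 (SE 0.21), 9.37-fold in the combination. SPRY4, its relative, rose by 0.39 (SE 0.068, adjusted p = 0.000108) with tazemetostat and 1.46 (SE 0.068, adjusted p = 3.1e-13) with the combination, with an interaction of 0.96 (SE 0.096, adjusted p = 5.41e-06). SPRED2, another inhibitor of ERK signalling, rose by 0.58 (SE 0.057), 0.48 (SE 0.056) and 1.02 (SE 0.057). ERRFI1, which binds and inhibits EGFR, rose by 0.97 (SE 0.059, adjusted p = 7.96e-11) with ipatasertib and 1.19 (SE 0.059, adjusted p = 8.22e-13) with the combination and fell with tazemetostat, at -0.25 (SE 0.059, adjusted p = 0.00188). CBLB, a ubiquitin ligase of active receptors, rose by 1.15 (SE 0.066, adjusted p = 4.01e-11) with ipatasertib, fell with tazemetostat, at -1.06 (SE 0.068, adjusted p = 2.46e-10), and rose by 0.25 (SE 0.066, adjusted p = 0.00266) with the combination. PTPRF, a receptor phosphatase, fell in each group, at -1.00 (SE 0.069), -0.87 (SE 0.068) and -1.57 (SE 0.07). The SPRY1 rise with ipatasertib did not pass without ipatasertib A (adjusted p = 0.0546).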

How the data were processed

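RNA sequencing of polyadenylated RNA was analysed in 12 libraries of 4 groups. Per the labels' protocols, RNA was taken with the RNeasy Plus kit and libraries with Kapa Hyper Prep. The authors deposited raw counts per gene for each library, and a table of normalised values for the whole series that was not used here. The genome build was hg19 and the tools HTSeq, STAR, DESeq2 and SAMtools, per the submitters' processing notes. Their versions, the annotation and strandedness are not given in the sources used, so reads of overlapping or antisense genes cannot be told apart. The 5 summary lines per file that name no gene, 29.8% to 38.6% of counted reads, were left out.

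Counts were fitted in R 4.3.3 with edgeR 4.0.16 (filterByExpr with a minimum count of 10, 0.283 CPM in at least 3 libraries, and TMM), with all 12 libraries in 1 quasi-likelihood fit, 1 coefficient per group and no block. Benjamini-Hochberg adjustment ran over 14874 genes, with a threshold of 0.05. The SE was obtained back from the F statistic and is approximate. The fit was tested on simulated data. The alternatives were relative log expression size factors, total counts alone, no filter, DESeq2 1.42.0, the compared groups alone, a replicate block, leaving out each library in turn, and leaving out both tazemetostat A and combination B. They were extended to the pathway genes after seeing the data.

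Every library's CPM is given for receptors called with a change of at least 2-fold in any of 5 comparisons, and for a few others chosen after their values were seen (EGFR and DDR1). From each pathway list up to 8 called genes with at least 2-fold changes against DMSO are named, by size. The members and lists were chosen with earlier results of these data known. Promoters came from RefSeq in GRCh38.p14, and intervals of count ratios are exact at 95% and cover counting error only.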

Additional observations from a re-analysis of the deposited data

Results flagged for a closer look

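For 3 receptors the effect of ipatasertib differed between cells without and with tazemetostat, by the interaction term of the edgeR quasi-likelihood fit with Benjamini-Hochberg adjustment. The difference in log2 change was 0.52 for EGFR, 0.48 for DDR1 and 0.59 for ROR1, with adjusted p of 0.00146, 0.0218 and 0.0237. All 3 were lowest in combination B among the combination libraries.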

How the results depend on the processing

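Across the 6 comparisons, 100 receptor calls were made, and 76 passed under all of the alternatives, with no change of sign. Of 74 values that were not called, 26 passed under at least 1 alternative. The counts that moved by over 1.5 times were these. Receptors called with at least 2-fold changes with ipatasertib were 5, and 1 to 5 without a replicate. The same count between the combination and tazemetostat was 3, and 3 to 5 without a replicate, with 5 without tazemetostat A and combination B. Interactions called were 3, and 1 to 7 without a replicate, with 11 without tazemetostat A and combination B. With the replicate block 18, 17, 25, 16, 20 and 4 receptors were called for ipatasertib, tazemetostat and the combination against DMSO, the combination against ipatasertib and against tazemetostat, and the interaction, against 19, 17, 25, 16, 20 and 3 without it. The block ended the PDGFRB call with ipatasertib and added AXL to the interactions. The letters were not taken to pair the libraries: deviations from the group means correlated at -0.067 to 0.30 in 18 same-letter pairs, 2 of them over 0.1, and 3 of 12 libraries correlated best with their own letter. Scaling by total counts alone shifted the all-gene median by 0.12 under ipatasertib, 0.071 under tazemetostat and 0.14 under both, and no receptor call changed direction. Precision is limited by depth for the 11 untested receptors and for ERBB4, PDGFRB, FLT1, MERTK, NTRK3 and ALK.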
